A study of Mus musculus with 16 samples.

Results

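The genes described here are 34 rows of a single-cell count matrix of 19715 genes, chosen by name as the enzymes and transporters of glycolysis and the targets of the hypoxia response. The 17 enzymes and transporters, in the order of the pathway, are Slc2a1, Hk1, Hk2, Gpi1, Pfkl, Pfkp, Pfkm, Aldoa, Aldoc, Tpi1, Gapdh, Pgk1, Pgam1, Eno1, Pkm, Ldha and Slc16a3. The 16 hypoxia targets are Pdk1, Pfkfb3, Bnip3, Ndrg1, Egln1, Egln3, Vegfa, Adm, Hilpda, Ankrd37, Ero1l, P4ha1, P4ha2, Car9, Higd1a and Mif. Hif1a, the oxygen-regulated subunit of the transcription factor HIF, was kept apart from both groups. The rule goes by gene names, which were proposed with earlier results of these data known, and all 34 were found in the matrix.

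The cells came from subcutaneous tumors of NB9464D, a mouse neuroblastoma line, grown in male C57BL/6 mice aged 8 weeks, both wild type (WT) and CD200R-/- (KO). WT and KO name the host mouse throughout, so for cells of the grafted line they do not name the genotype of the cell. The growth protocol of the labels writes CD200-/- in place of CD200R-/-. CD200R restrains myeloid cells when it meets its ligand CD200. Tumors were taken on day 28 and digested with 1 mg/mL collagenase. A 10x Genomics Chromium 3' chip received sorted CD45+ leukocytes in one preparation and the unsorted cells of the tumor in the other. The 4 combinations are WT sorted, KO sorted, WT total tumor and KO total tumor. The labels list 4 samples in each combination, but a cell carries only the name of its combination. Each combination was therefore 1 library, without a replicate and without a test of any difference between genotypes.

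In cells with enough oxygen, prolyl hydroxylases mark the HIF alpha subunit for destruction. When oxygen is low the subunit persists, pairs with ARNT and binds short DNA motifs near genes of glucose uptake, glycolysis, lactate export, blood vessel growth and survival. Some of these targets, such as the hydroxylases Egln1 and Egln3 and the mitochondrial gatekeeper Pdk1, feed back on the pathway itself. HIF protein is set largely by its stability, so the mRNA of Hif1a is not a measure of it. Macrophages and neutrophils of tumors are known for strong glycolysis, and tumor regions far from vessels are known to be poor in oxygen.

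The DNA letters that HIF binds are ACGTG or GCGTG, read on either strand. RefSeq promoter windows of the build GRCm38.p6 were found for 33 of the 34 members, Ero1l under its current symbol Ero1a, and Ndrg1 has no entry. Of the 33, 22 had a single window, and for every other gene only the first listed window was counted. In the 250 bases before the start, ACGTG was present in 16.6% of 27025 promoters and in 17 of the 33 members (51.5%). The letters GCGTG were present in 28.2% of all promoters and in 16 members (48.5%), and either was present in 38.6% and in 25 members (75.8%). Either motif was present in 12 of 17 enzymes and transporters (70.6%) and in 12 of 15 hypoxia targets (80.0%). A CACGTG palindrome holds ACGTG on both strands and counts at 2 adjacent positions. The 6 windows below are examples with motifs: Pgk1, Slc16a3, Bnip3, Ankrd37 and Ero1l were lower in KO macrophages of both preparations, and Hif1a was higher. Neither motif was present in the counted windows of Hk1, Gpi1, Aldoa, Tpi1, Pkm, Vegfa, Hilpda and Mif. Of these genes, all but Hk1 and Vegfa were lower in KO macrophages of both preparations too. Pdk1, Pfkfb3 and Pfkp hold a motif and differed by less than 1.5-fold in pooled macrophages of both. Whether motifs go with the differences was not tested. Capitals mark both motifs, and positions count back from the last base before the start, which is -1, to the leftmost letter of the motif.
Pgk1 (chrX:106186850-106187099, + strand): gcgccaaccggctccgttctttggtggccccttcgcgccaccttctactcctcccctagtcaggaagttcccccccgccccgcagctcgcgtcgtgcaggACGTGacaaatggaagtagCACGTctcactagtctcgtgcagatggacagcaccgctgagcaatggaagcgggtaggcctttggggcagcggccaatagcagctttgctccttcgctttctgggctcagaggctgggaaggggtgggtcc
Slc16a3 (chr11:120948817-120949066, + strand): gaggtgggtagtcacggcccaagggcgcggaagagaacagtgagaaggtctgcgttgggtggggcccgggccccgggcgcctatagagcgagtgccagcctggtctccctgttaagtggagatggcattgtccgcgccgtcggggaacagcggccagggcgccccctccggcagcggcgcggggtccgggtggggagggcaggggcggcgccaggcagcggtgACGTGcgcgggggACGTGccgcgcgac
Bnip3 (chr7:138909507-138909756, - strand): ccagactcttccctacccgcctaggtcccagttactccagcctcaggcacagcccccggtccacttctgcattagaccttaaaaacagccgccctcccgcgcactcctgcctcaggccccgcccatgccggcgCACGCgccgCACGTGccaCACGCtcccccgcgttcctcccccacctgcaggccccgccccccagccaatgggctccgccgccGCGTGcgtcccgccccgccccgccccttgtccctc
Ankrd37 (chr8:45999851-46000100, - strand): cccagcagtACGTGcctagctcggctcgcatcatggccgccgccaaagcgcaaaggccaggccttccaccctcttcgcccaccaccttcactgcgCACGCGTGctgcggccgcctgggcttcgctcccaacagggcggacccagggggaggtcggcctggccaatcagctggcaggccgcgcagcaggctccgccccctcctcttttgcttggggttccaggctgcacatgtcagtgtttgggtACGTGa
Ero1l (chr14:45318573-45318822, - strand): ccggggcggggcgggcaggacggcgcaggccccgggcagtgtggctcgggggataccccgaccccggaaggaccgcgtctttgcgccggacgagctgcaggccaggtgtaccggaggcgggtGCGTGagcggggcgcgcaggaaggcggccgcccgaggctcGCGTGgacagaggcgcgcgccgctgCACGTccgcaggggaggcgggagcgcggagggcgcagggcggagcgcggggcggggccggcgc
Hif1a (chr12:73907617-73907866, + strand): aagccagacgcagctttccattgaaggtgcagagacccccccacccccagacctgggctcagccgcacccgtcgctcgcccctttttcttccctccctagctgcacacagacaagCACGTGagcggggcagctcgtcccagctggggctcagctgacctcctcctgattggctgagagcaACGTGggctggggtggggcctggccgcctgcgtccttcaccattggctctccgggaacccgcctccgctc
The Pgk1 window has ACGTG at -150 and -131, and that of Slc16a3 at -27 and -14, close to the start. Bnip3 has a palindrome at -108 between GCGTG motifs at -117 and -99, with another at -35. Ankrd37 has ACGTG at -241 and -6 and overlapping GCGTG motifs at -155 and -152. Ero1l has ACGTG at -63 and GCGTG at -128 and -88, and Hif1a has a palindrome at -135 and ACGTG at -70. These matches describe the letters and say nothing on whether HIF is bound there.

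The 4 libraries held 4305 to 5897 cells and 29200338 to 103877007 molecular tags (UMIs, which count captured RNA molecules). The median cell had 4665 UMIs in WT sorted, 3127 in KO sorted, 19850 in WT total tumor and 16276 in KO total tumor. Levels are CPM, each gene's UMIs per 1000000 UMIs of all cells of that type in that library. A UMI marks the 3' end of a molecule, so no length enters the level. Of 20182 distinct cell barcodes, 113 occurred in more than 1 library, and values without those cells stand beside the results they touch. Cell type names are the authors' 19. By marker genes, the names of neutrophils and B cells were borne out, with 3 and 2 markers among their 10 leading genes, while that of NK cells rested on 1. Of the cells named regulatory T cells (Tregs), the 10 leading genes held 1 regulatory T marker, Foxp3, beside Il5, Il13 and Il17a, so that name was not borne out. No marker of their own stood among the 10 leading genes of cells named M1 or M2 macrophages, neuroblastoma (NB) or fibroblasts. The marker lists used also had no gene among those of CD4 T cells, CD8 T cells, CD8 effectors, and migratory or myeloid dendritic cells. Cd8a and Cd8b1 did stand among the leading genes of both CD8 names. NB cells were led by cell cycle genes such as Esco2 and Prc1, and of 8 neuroblastoma markers only Mycn, Hand2 and Stmn2 were measured, the other 5 being not analysed here. Erythroid genes led the cells named cancer stem cells, and mast cell genes those named hematopoietic stem cells. The names are kept as labels of the deposited groups.

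Within the WT sorted library the glycolytic and hypoxia genes were highest in macrophages and neutrophils. The summed level of the 17 enzymes and transporters was 14525 CPM (95% Poisson interval 14444 to 14607) in M2 macrophages, 13660 (13465 to 13858) in neutrophils and 12302 (12259 to 12346) in M1 macrophages. Dendritic cells had 8756 (8666 to 8846) and NK cells 8744 (8626 to 8863), 2 neighbours in the order whose intervals overlap. NB cells had 9308 CPM, fibroblasts 8428, Tregs 4539, T cells 2350 and B cells 1848. The 15 hypoxia targets other than Mif were set apart from Mif, a cytokine whose level is far above theirs, after the values were seen. Their sum was 8172 CPM (8021 to 8325) in neutrophils, 3216 (3178 to 3255) in M2 and 1297 (1283 to 1311) in M1 macrophages, 1073 in fibroblasts, 1040 in dendritic cells, 846 in NK cells, 825.5 in NB cells, 699.8 in Tregs, 328 in T cells and 246 in B cells. Neutrophils and M2 macrophages thus stood close in enzymes, while neutrophils stood well above in targets. Intervals of levels, shares and ratios are at 95% and hold counting error alone, so mouse-to-mouse spread is not in them.

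Single members differed in the cell type that had most. Hilpda, which coats lipid droplets and blocks their breakdown, was at 4516 CPM in neutrophils and 907 in M2 macrophages, with a median of 61.6 over the 14 names with at least 50 cells. Egln3, a strongly hypoxia-induced prolyl hydroxylase, was at 608 CPM in neutrophils and 170.5 in M2 macrophages and had no UMI in B cells. Ero1l, the oxidase that forms disulfide bonds in the endoplasmic reticulum, was at 1047 CPM in neutrophils and 443 in M2 macrophages. The glucose transporter Slc2a1 was at 561 CPM in neutrophils, 368 in M2 macrophages and 10.4 in CD8 T cells, and the lactate exporter Slc16a3 at 641 and 186 CPM with no UMI in CD8 T cells. Neutrophils were thus highest for uptake, export and several targets.

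Other members were highest elsewhere. Ankrd37, a small ankyrin repeat protein induced by hypoxia, was highest in myeloid dendritic cells (142 CPM, against 111 in neutrophils). Pdk1, the kinase that keeps pyruvate out of mitochondria, was highest in CD4 T cells (113 CPM, against 74.9 in CD8 T cells). P4ha2, a subunit of the enzyme that hydroxylates collagen, was highest in fibroblasts (65.2 CPM, against 29.1 in NB cells), as were the muscle phosphofructokinase Pfkm (24.9 and 10.4) and Mif (2087 and 1431). Hif1a was at 309 CPM in both neutrophils and Tregs, whose counting intervals overlap, and at 16.4 CPM in cancer stem cells. Car9, a carbonic anhydrase that sits on the cell surface, stayed at or below 12.5 CPM in every name.

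**Figure D1:**
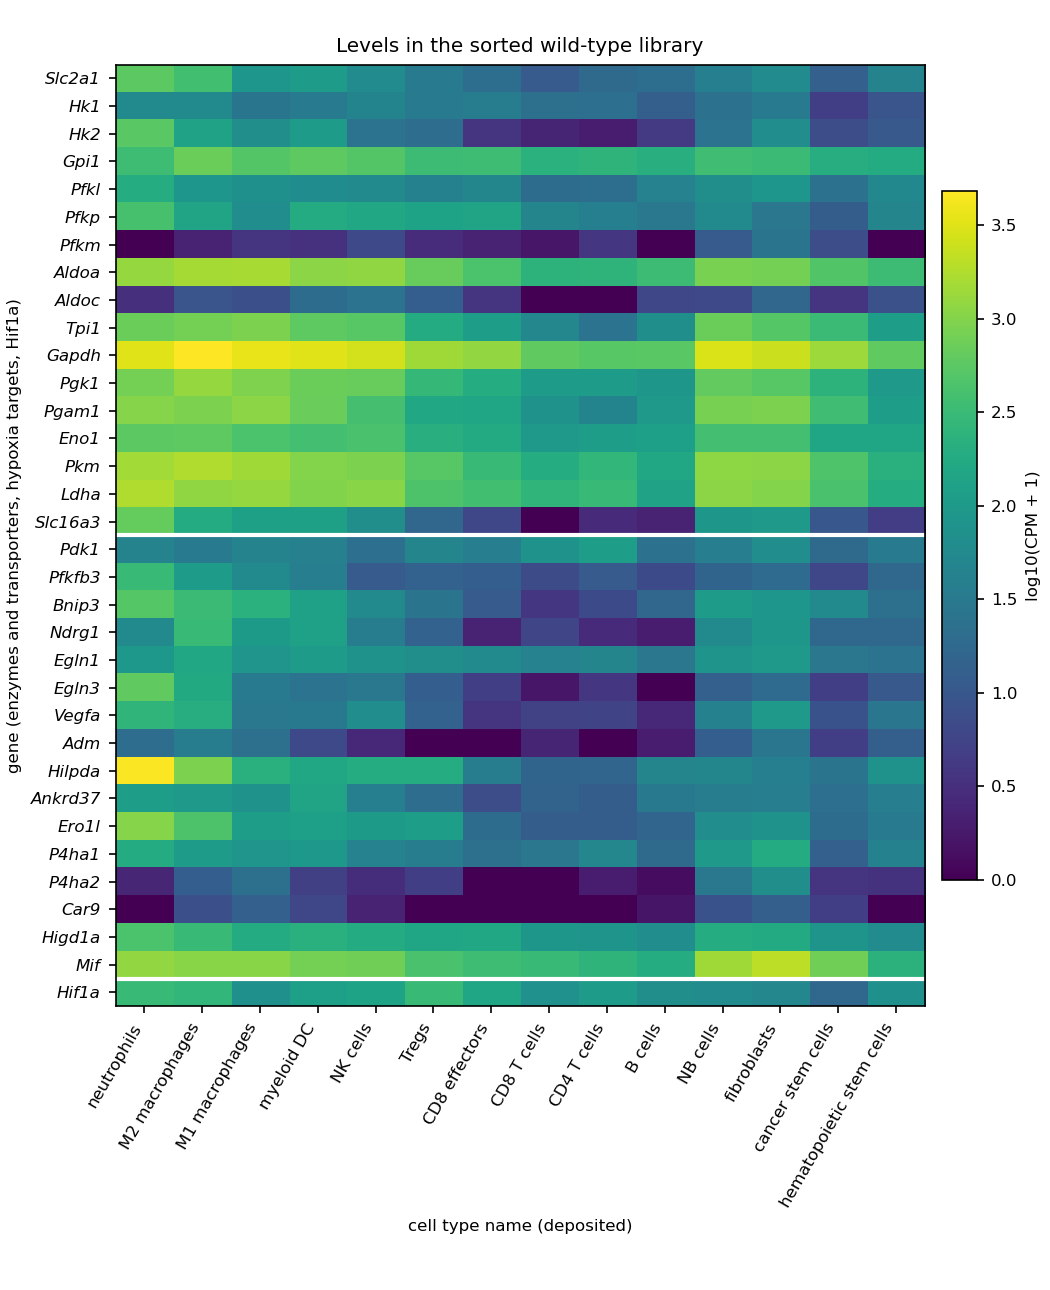
Levels of the 34 members in the WT sorted library by deposited cell type name, as log10 of CPM plus 1 (color scale). White lines part enzymes and transporters, hypoxia targets and Hif1a. Hilpda in neutrophils (4516 CPM) and Gapdh in M2 macrophages (4821 CPM) are among the brightest fields.

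Which gene of a family carried the step also depended on the cell. Slc2a1 made up 96.5% (5232 of 5423) of the UMIs of Slc2a1 and Slc2a3 in WT sorted monocytes and macrophages, 57.9% (55.1 to 60.5, Clopper-Pearson interval) in neutrophils and 49.0% (39.0 to 59.1) in T cells. Of the hexokinase UMIs, Hk1 took 90.1% in T cells, Hk2 76.6% in neutrophils and Hk3, which is no member, 35.8% in monocytes and macrophages. Egln3 took 85.6% of the 3 prolyl hydroxylases in neutrophils, 47.3% (45.5 to 49.1) in M2 and 21.2% in M1 macrophages, while Egln2 took 63.4% in B cells. These shares compare molecules of different genes within a library and so do not depend on the scaling between libraries.

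In monocytes and macrophages, the pooled M1 and M2 cells, the KO libraries had lower levels of most of these genes in both preparations. The sorted libraries gave 1577 WT and 761 KO cells of this class, the total tumor libraries 191 and 371. M2 macrophages were 627 and 411 of the sorted and 81 and 168 of the total tumor cells. The mix of the 2 names thus differed between genotypes, mainly in the sorted libraries. Ratios are log2 of KO over WT, less that of the class's median gene, which itself lay 0.32 higher in KO by total UMIs in sorted and 0.31 in total tumor libraries. A gene is called lower or higher where the ratio is at least 1.5-fold and both libraries together have at least 20 UMIs. In the sorted libraries 12 of 17 enzymes and transporters were lower and 1 higher (median -1.06), where 23.1% of all 12613 genes were lower and 21.9% higher. Of the 16 hypoxia targets 12 were lower and 0 higher (median -1.18). In the total tumor libraries 15 enzymes and transporters were lower and 0 higher (median -1.46), and 14 targets were lower and 0 higher (median -1.41), against 14.6% of 9989 genes lower and 18.7% higher. All 34 members had the UMIs required in both preparations. Lower in both were 12 of 17 enzymes and transporters, 12 of 16 targets and 24 of 34 members, against 6.70% of the 9726 genes measured in both, and 1 member, Hif1a, was higher in both, against 9.01%. The median of all genes was 0.01 in sorted and 0.02 in total tumor libraries.

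The entry of glucose and the first steps moved as follows. Slc2a1 was at 156.5 CPM in WT and 67.9 in KO sorted cells, and 264.5 and 60.6 CPM in the total tumor libraries. Both KO libraries lay below both WT libraries, with ratios of -1.53 (-1.65 to -1.40) and -2.44 (-2.73 to -2.16). Of the hexokinases, which trap glucose by phosphorylation, Hk1 had ratios of -0.58 and -0.11, within the fold in both preparations, and Hk2 0.14 in sorted and -0.90 in total tumor cells. In sorted M2 macrophages alone Hk1 was lower, at -1.10 (-1.40 to -0.81), against -0.41 in M1 macrophages. Gpi1, the isomerase that follows, was at 545 CPM in WT and 327 in KO sorted cells, and 907 and 347 CPM in the total tumor libraries. Its ratios were -1.06 (-1.12 to -1.0) and -1.70 (-1.83 to -1.58), and again both KO libraries were the lower ones.

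Among the phosphofructokinases, which commit sugar to glycolysis, the isoforms parted. Pfkl, the liver type, was at 73.4 CPM in WT and 52.6 in KO sorted cells, and 100.5 and 45.5 CPM in the total tumor libraries, with ratios of -0.80 (-0.95 to -0.66) and -1.46 (-1.82 to -1.10). Pfkp, the platelet type, had ratios of 0.0 and -0.27, both within the fold. The share of Pfkl among the 3 isoforms was 46.4% (45.1 to 47.8) in WT and 32.8% (30.4 to 35.3) in KO sorted cells. In total tumor cells it was 53.9% (48.9 to 58.7) and 34.4% (28.8 to 40.4). Pfkp had more UMIs than Pfkl in both KO libraries and also in WT sorted cells (2751 and 2453). Only in WT total tumor cells did Pfkp have fewer (172 and 223). Pfkm, with 77 and 42 UMIs in the sorted libraries, was at 2.30 CPM in WT and 4.785 in KO sorted cells, and 8.56 and 6.78 CPM in the total tumor libraries. Its ratio was 0.73 (0.15 to 1.29) in sorted and -0.65 (-1.76 to 0.42) in total tumor cells, the 1 enzyme called higher, and with each sorted cell thinned to 2000 UMIs it was -0.13.

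The splitting of the sugar and the energy-yielding steps held the highest levels. Aldoa, the main aldolase, was at 1591 CPM in WT and 599 in KO sorted cells, and 1699 and 678 CPM in the total tumor libraries, with ratios of -1.73 (-1.77 to -1.69) and -1.64 (-1.73 to -1.55). Aldoc, the second aldolase, was low, at 9.80 CPM or less in each of the 4 libraries, with ratios of 0.11 and -1.36. Tpi1, triosephosphate isomerase, was at 882 CPM in WT and 379 in KO sorted cells, and 846 and 364 CPM in the total tumor libraries. Its ratios of -1.54 and -1.53 were almost the same in both preparations. Gapdh, the dehydrogenase often used as a reference gene, was at 3975 CPM in WT and 1372 in KO sorted cells, and 4833 and 2173 CPM in the total tumor libraries. With ratios of -1.86 (-1.88 to -1.83) and -1.47 (-1.52 to -1.42) it was a gene that differed here and no stable reference.

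Pgk1, whose promoter holds 2 ACGTG motifs, was at 1008 CPM in WT and 628.5 in KO sorted cells, and 1250 and 551 CPM in the total tumor libraries, with ratios of -1.0 (-1.05 to -0.96) and -1.50 (-1.60 to -1.40). Pgam1, phosphoglycerate mutase, was at 1059 CPM in WT and 472 in KO sorted cells, and 1173 and 538 CPM in the total tumor libraries, and Eno1, enolase, at 474 CPM in WT and 243 in KO sorted cells, and 479.9 and 184 CPM in the total tumor libraries. Both were lower in both KO libraries, with ratios of -1.49 and -1.44 for Pgam1 and -1.29 and -1.70 for Eno1. Eno1 has a near-identical copy, Eno1b, in the matrix, and several of these enzymes have processed pseudogenes, so how their UMIs were split is uncertain.

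The end of the pathway followed. Pkm, pyruvate kinase, was at 1500 CPM in WT and 584 in KO sorted cells, and 1538 and 721 CPM in the total tumor libraries, with ratios of -1.68 (-1.73 to -1.64) and -1.41 (-1.50 to -1.32). Ldha, which turns pyruvate into lactate, was at 1249 CPM in WT and 541 in KO sorted cells, and 1323 and 639 CPM in the total tumor libraries, with ratios of -1.53 (-1.57 to -1.49) and -1.36 (-1.46 to -1.27). Slc16a3, which carries lactate out, was at 140.2 CPM in WT and 106 in KO sorted cells, and 154 and 33.9 CPM in the total tumor libraries. Its ratio was -0.73 (-0.83 to -0.63) in sorted and -2.49 (-2.89 to -2.12) in total tumor cells, so the KO total tumor library alone was far below the other 3. Of the UMIs of Slc16a1 and Slc16a3 together, Slc16a3 made up 92.1% in WT and 82.1% in KO sorted cells, and 82.2% (78.1 to 85.7) and 39.8% (32.5 to 47.4) in total tumor cells.

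Hilpda, Bnip3, Ero1l and Higd1a were lower in KO in both preparations. Hilpda was at 389.9 CPM in WT and 136 in KO sorted cells, and 164 and 63.5 CPM in the total tumor libraries, with ratios of -1.85 (-1.93 to -1.76) and -1.68 (-1.98 to -1.39). Bnip3, which tags mitochondria for removal, was at 249 CPM in WT and 132 in KO sorted cells, and 231 and 89.6 CPM in the total tumor libraries, with ratios of -1.23 (-1.32 to -1.15) and -1.68 (-1.93 to -1.43). Ero1l was at 198 CPM in WT and 91.8 in KO sorted cells, and 656 and 218.5 CPM in the total tumor libraries, with ratios of -1.43 (-1.54 to -1.32) and -1.90 (-2.06 to -1.75). Each of these 3 was lower in both KO libraries than in either WT library, except that Ero1l was at 218.5 CPM in KO total tumor and 198 in WT sorted cells. Higd1a, a protein of the inner mitochondrial membrane, was at 215.5 CPM in WT and 121 in KO sorted cells, and 373 and 220.4 CPM in the total tumor libraries, with ratios of -1.15 and -1.07.

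Ankrd37 had the lowest ratio of the targets in sorted cells. It was at 81.4 CPM in WT and 25.9 in KO sorted cells, and 78.4 and 25.2 CPM in the total tumor libraries, with ratios of -1.98 (-2.18 to -1.78) and -1.95 (-2.43 to -1.50), a 3.94-fold and 3.87-fold difference. The stress-response gene Ndrg1 was at 152 CPM in WT and 74.85 in KO sorted cells, and 364 and 216 CPM in the total tumor libraries, with ratios of -1.35 and -1.07. Its ratio in total tumor cells rested on M2 macrophages, since it was 0.07 in M1 macrophages alone.

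Egln1, Egln3, Adm, Mif, P4ha2 and Car9 were lower as well. Egln1, the main oxygen sensor among the hydroxylases, was at 101 CPM in WT and 74.3 in KO sorted cells, and 229 and 131 CPM in the total tumor libraries, with ratios of -0.77 and -1.12. Those ratios rested on M2 macrophages (-1.40 and -1.28), since in M1 macrophages alone they were -0.49 and -0.42, within the fold. Egln3 was at 66.5 CPM in WT and 30.5 in KO sorted cells, and 74.35 and 40.7 CPM in the total tumor libraries, with ratios of -1.45 (-1.64 to -1.26) and -1.18 (-1.58 to -0.80). The part of Egln2, which is no member and is not known as a strong hypoxia target, in the UMIs of the 3 hydroxylases was 17.0% in WT and 28.0% in KO sorted cells and 8.68% and 20.6% in total tumor cells. Adm, a peptide that widens vessels, was at 25.3 CPM in WT and 14.0 in KO sorted cells, and 93.3 and 23.7 CPM in the total tumor libraries, with ratios of -1.18 (-1.46 to -0.90) and -2.29 (-2.77 to -1.83). Mif, a cytokine of macrophages, was at 1070 CPM in WT and 588 in KO sorted cells, and 1817 and 890.4 CPM in the total tumor libraries, with ratios of -1.19 and -1.34. P4ha2 was at 19.4 CPM in WT and 7.63 in KO sorted cells, and 111 and 49.4 CPM in the total tumor libraries. Car9 was at 11.1 CPM in WT and 6.72 in KO sorted cells, and 14.4 and 7.75 CPM in the total tumor libraries. Their ratios were -1.67 and -1.49 for P4ha2 and -1.05 (-1.47 to -0.65) and -1.21 (-2.17 to -0.30) for Car9, whose intervals are wide. In sorted M2 macrophages alone Car9 was within the fold, at -0.55 (-1.31 to 0.17).

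Of the 4 other targets, 2 were lower in total tumor cells alone and 2 in neither preparation of the pooled class. Vegfa, the vessel growth factor, was at 71.0 CPM in WT and 75.8 in KO sorted cells, and 167 and 70.25 CPM in the total tumor libraries, with ratios of -0.23 (-0.35 to -0.10) and -1.56 (-1.85 to -1.28). P4ha1, of the same family as P4ha2, had -0.17 (-0.28 to -0.06) and -1.72 (-1.95 to -1.50). Pdk1 had ratios of 0.05 (-0.11 to 0.20) and -0.35 (-0.69 to -0.02), and Pfkfb3, which makes an activator of phosphofructokinase, -0.29 (-0.42 to -0.16) and 0.10 (-0.35 to 0.55). In sorted M2 macrophages alone Pfkfb3 was lower, at -0.95 (-1.16 to -0.75), against 0.01 in M1 macrophages. The values that follow are again those of the pooled class. The intervals of Pdk1 and of Pfkfb3 in both preparations stayed inside the 1.5-fold limits of -0.58 and 0.58 on this scale, except that of Pdk1 in total tumor cells, which reached -0.69. The differences between the preparations were not tested.

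Hif1a ran the other way. It was at 121 CPM in WT and 370.1 in KO sorted cells, and 83.4 and 191 CPM in the total tumor libraries, so that both KO libraries lay above both WT libraries. The ratio was 1.29 (1.22 to 1.35) in sorted and 0.88 (0.63 to 1.14) in total tumor cells, 2.44-fold and 1.85-fold.

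**Figure D2:**
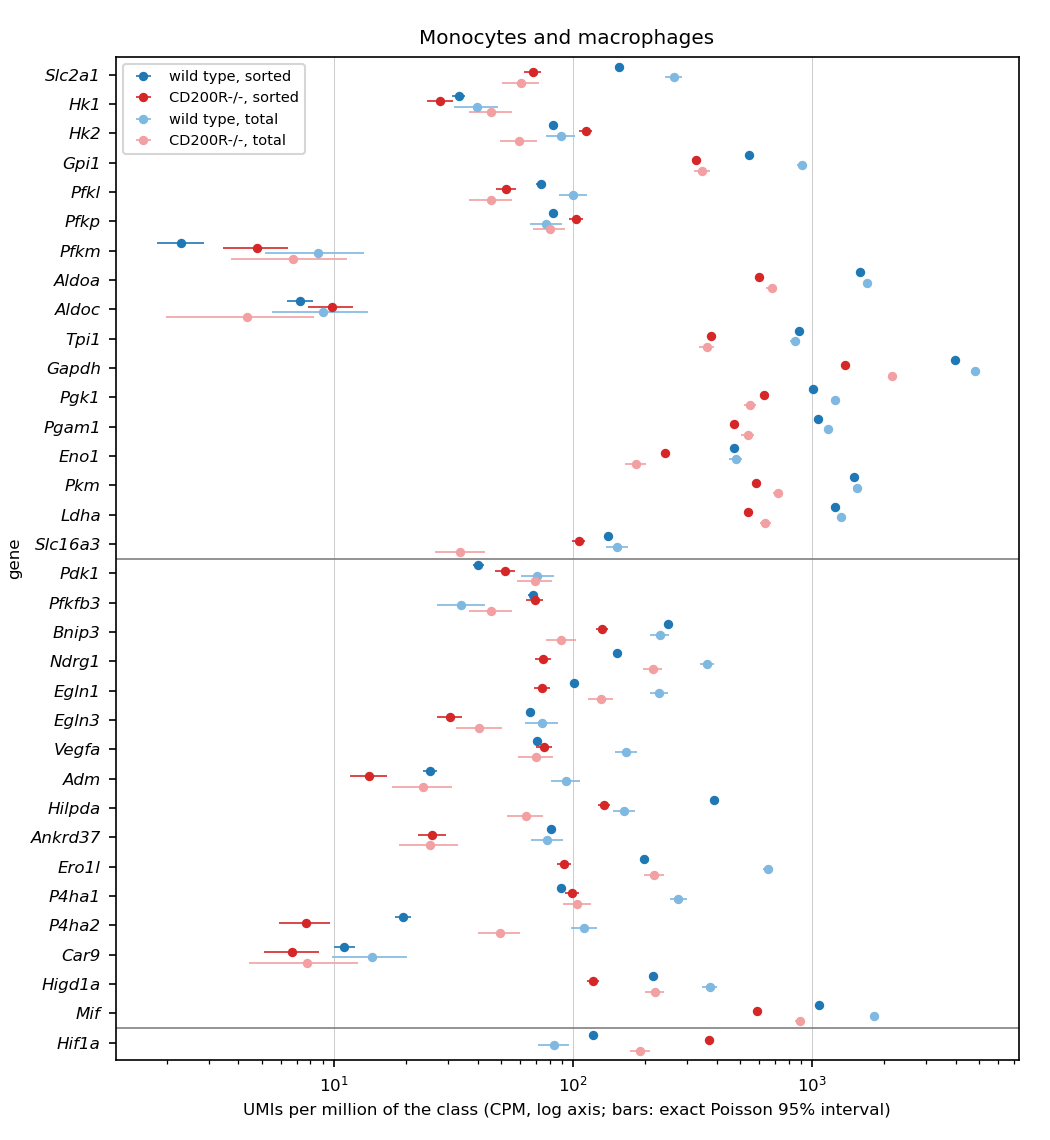
Levels of the 34 members in monocytes and macrophages of the 4 libraries, in CPM on a log axis, with exact Poisson 95% intervals as bars. Red and pink points (KO) lie to the left of blue and light blue points (WT) for most genes, and to the right for Hif1a (121 and 370 CPM in sorted cells).

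Several features of these macrophages differed between the libraries beside the members. The median cell had 18239 UMIs in WT and 7955 in KO sorted, and 11579 and 2993 in total tumor libraries. The 6 macrophage markers summed to 11143 and 6171 CPM and to 6063 and 5164 CPM. The 5 erythroid markers summed to 389.9 and 0.456 CPM and to 240 and 26.2, the 5 neutrophil markers to 321 and 82.4 CPM and to 9.91 and 32.5, the 7 dissociation stress genes to 4292 and 5790 CPM and to 2444 and 3765, and the 6 fibroblast markers to 11.9 and 18.5 CPM and to 1040 and 292. Of the macrophages, 41.1% in WT and 4.60% in KO sorted and 59.2% and 14.0% in total tumor libraries had a UMI of S100a8, S100a9 or a hemoglobin gene. With those cells the medians of enzymes and targets were -1.06 and -1.18 in sorted and -1.46 and -1.41 in total tumor libraries. Without those cells the medians were -1.13 and -1.23 in sorted and -1.59 and -1.63 in total tumor libraries. Without the 27, 21, 17 and 19 macrophages with a shared barcode (WT and KO sorted, WT and KO total tumor) they were -1.06, -1.22, -1.47 and -1.42. The part of depth, macrophage identity, dissociation stress and RNA of other cells in the differences was not tested.

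Short and highly expressed genes leaned to lower values in KO in general. Of 650 genes with a mean of at least 200 CPM in sorted macrophages, ribosomal protein genes left out, 36.6% were lower (median -0.37), and 113 of 564 such genes in total tumor cells (median -0.17). The 11 members at that level in sorted cells and the 13 in total tumor cells were all lower, with medians of -1.53 and -1.47. Among genes that span 20 kb or more, 13.1% were lower in sorted cells (median 0.21), against 9 of 16 such members (median -0.79), and among shorter genes 34.1% (median -0.27), against 14 of 16 members (median -1.21). Members below 200 CPM were lower in 13 of 22 cases in sorted cells (59.1%, median -0.79), against 23.1% of all genes at any level. These strata were formed after values had been seen.

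Most members were lower in KO under both macrophage names of the sorted libraries, with exceptions. In M2 macrophages 13 of 17 enzymes and transporters and 13 of 16 targets were lower (medians -1.29 and -1.42), where 21.6% of all genes were lower. In M1 macrophages 12 and 11 were lower (medians -1.04 and -1.12), where 23.4% of all genes were. Vegfa was at 198 CPM in WT and 124 in KO M2 macrophages of the sorted libraries (ratio -1.04) but at 28.5 and 40.3 CPM in M1 macrophages (ratio 0.20, within the fold). Ndrg1 in total tumor libraries had a ratio of -1.19 in M2 and 0.07 in M1 macrophages. The summed targets other than Mif were at 3216 CPM in WT and 1226 in KO M2 macrophages, and at 1297 and 854 CPM in M1 macrophages. In total tumor libraries they were at 4696 and 2259 CPM in M2 and at 1178 and 632 CPM in M1 macrophages. Slc2a1 had ratios of -2.35 (-2.52 to -2.19) in M2 and -1.08 (-1.28 to -0.90) in M1 macrophages of the sorted libraries. The ratios of Hif1a were 0.60 in M2 and 1.53 in M1 macrophages of the sorted and 0.53 and 1.80 of the total tumor libraries. Whether the names differ in their ratios was not tested.

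Per cell, the difference lay along the range of target counts. Each cell was thinned to 2000 UMIs, and shallower cells, 80 and 104 in WT and KO sorted and 48 and 134 in total tumor libraries, were left out. Of the remaining macrophages 42.7% (40.2 to 45.2) in WT and 24.7% (21.4 to 28.1) in KO sorted libraries had at least 3 UMIs of the 15 targets other than Mif, and 60.1% (51.6 to 68.2) in WT total tumor and 45 of 237 (14.2% to 24.6%) in KO total tumor libraries. Unthinned, the shares were, in the same order, 86.9%, 65.2%, 70.7% and 38.3%. In B cells, where the targets are low, the share was 2.39% in WT and 2.64% in KO sorted libraries (medians of 3118 and 2168 UMIs before thinning). In WT sorted macrophages 202 cells had 2 and 128 had 3 target UMIs, so many cells lie next to the limit, which was set after values had been seen.

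The most target-rich cells differed too. The upper decile of macrophages began at 14 target UMIs in WT and 5 in KO sorted libraries, and at 13 and 5 in total tumor libraries. The mean count of enzyme UMIs per thinned cell was 27.3 and 10.8 in sorted and 28.7 and 11.2 in total tumor libraries. M2 macrophages with at least 3 target UMIs were 54.2% and 27.7% in sorted and 80.8% and 27.2% in total tumor libraries, and M1 macrophages 34.6% and 20.6%, and 38.6% and 9.82%. Over the 1497 thinned WT and 657 KO sorted macrophages, Pearson's r of a target with the sum of the other targets was 0.65 and 0.54 for Ero1l, 0.63 and 0.62 for Hilpda, 0.56 and 0.54 for Ndrg1, 0.54 and 0.50 for Bnip3 and 0.56 and 0.31 for Egln3. Over the 143 WT and 237 KO total tumor macrophages it was 0.67 and 0.58 for Ero1l and 0.63 and 0.63 for Ndrg1, but 0.08 and 0.07 for Hilpda, 0.24 and 0.29 for Bnip3 and 0.24 and 0.49 for Egln3. P4ha1, at 0.16 and 0.17 in sorted cells, was at 0.47 and 0.38 in total tumor cells, and P4ha2, at 0.08 and 0.06, was at 0.34 and 0.60. The order of the targets by this measure thus differed between preparations. For Pdk1 r was 0.07 to 0.14 over the 4 libraries, for Hif1a 0.10 to 0.29 and for the enzyme sum 0.54 to 0.68. The cells of a library share that library and 1 depth, and values for genes with few UMIs, such as Car9 with 29 in WT sorted cells, are limited by counts.

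**Figure D3:**
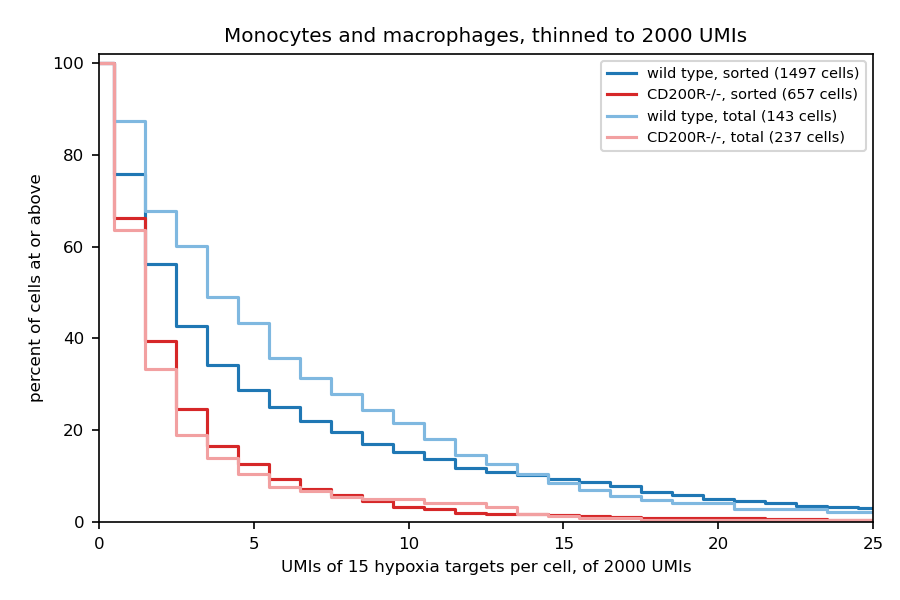
Percent of monocytes and macrophages (vertical axis) with at least the number of hypoxia target UMIs on the horizontal axis, each cell thinned to 2000 UMIs, for the 4 libraries. At 3 UMIs the WT curves stand at 42.7% (sorted) and 60.1% (total tumor) and the KO curves lie below both, at 24.7% in sorted cells.

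Neutrophils showed the same direction with larger medians, a difference from macrophages that was not tested. With 432 WT and 87 KO sorted cells, 13 of the 15 enzymes and transporters with enough UMIs (median -1.78) and 13 of 14 targets (median -1.57) were lower, where 27.1% of genes were lower and the median gene lay 0.40 higher in KO. Hilpda was at 4516 CPM in WT and 729.7 in KO, a ratio of -3.03 (-3.28 to -2.78). Gapdh was at 3236 and 600.0 CPM, a ratio of -2.83 (-3.11 to -2.56), and Ldha at 1747 and 395 CPM, a ratio of -2.54 (-2.90 to -2.21). Exceptions were Slc16a3, at 641 and 967.5 CPM (ratio 0.20, -0.04 to 0.43), Gpi1 (ratio -0.54), Ndrg1 (ratio 0.37, -0.46 to 1.12) and Hif1a (ratio -0.15, -0.54 to 0.23), all within the fold. Adm had 27 UMIs in WT and 0 in KO, which, against a floor of 3 counts in the KO library, is at least 1.61-fold lower relative to the median gene. Thinned cells with at least 3 target UMIs were 76.4% (71.4 to 80.9) of 326 in WT and 31.0% (17.6 to 47.1) of 42 in KO. Beside this, the 5 neutrophil markers summed to 76567 CPM in WT and 34608 in KO, the dissociation stress genes to 12485 and 23863, and the erythroid markers to 8638 and 0, and their part in the difference was not tested.

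Dendritic cells and NK cells of the sorted libraries followed. Of the enzymes and transporters, 12 of 17 were lower in dendritic cells (median -0.93) and 13 of 17 in NK cells (median -0.96), and of the targets 11 of 16 (median -0.99) and 8 of 13 (median -0.82), against 19.1% and 27.5% of genes. The median gene lay 0.30 and 0.36 higher in KO. In dendritic cells Ankrd37 was at 93.7 CPM in WT and 14.3 in KO (ratio -3.01, -3.37 to -2.66), and Bnip3 at 104 and 31.3 CPM (ratio -2.02, -2.28 to -1.77). Hif1a was at 109 and 251 CPM (ratio 0.91, 0.76 to 1.07), higher in KO. The dendritic class pools names whose proportions differ between libraries, and in myeloid dendritic cells alone 11 of 16 enzymes and transporters and 11 of 14 targets were lower, against 17.0% of genes. In NK cells Egln3 was at 28.7 and 4.59 CPM, from 69 and 9 UMIs (ratio -3.0, -4.19 to -2.0), while Vegfa, the 1 target called higher, was at 62.8 and 198 CPM (ratio 1.30, 1.02 to 1.58). Macrophage markers summed to 1061 CPM in WT and 57.1 in KO NK cells and to 2737 and 1104 CPM in dendritic cells, and their part in these differences was not tested.

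In B and T cells of the sorted libraries Gpi1, Aldoa, Tpi1, Gapdh, Pgam1, Eno1, Pkm and Ldha were lower in KO, and Pgk1 was within the fold. Lower were 9 of 14 enzymes and transporters in B cells (median -1.04, against 27.7% of genes) and 8 of 13 in T cells (median -0.92, against 25.9%). Of the 11 targets with enough UMIs in each, 5 were lower and 2 higher in B cells and 4 were lower and 1 higher in T cells, with medians of -0.27 in both. Of the members other than Hif1a that span under 20 kb, 10 of 13 were lower in B cells (median -1.22) and 9 of 12 in T cells (median -0.96). Of those that span 20 kb or more, 3 of 11 (27.3%, median -0.14) and 2 of 11 (18.2%, median -0.08) were. For these longer members the shares were no larger than the 27.7% and 25.9% of all genes. The shares of all genes within each span group are not given here for B and T cells. The part of gene span in these differences was not tested. Ratios by total UMIs, which leave out the shift of the median gene (0.45 in B and 0.57 in T cells), gave 3 lower targets in B cells and 2 lower enzymes and 2 lower targets in T cells. Gapdh was at 545 CPM in WT and 230.1 in KO B cells (ratio -1.69, -1.83 to -1.54) and at 728 and 410.0 CPM in T cells (ratio -1.40, -1.51 to -1.29). Ero1l in T cells, at 13.1 and 33.9 CPM (ratio 0.80, 0.24 to 1.38), was higher in KO, as was Hif1a, with ratios of 0.66 (0.46 to 0.87) in T cells and 0.63 (0.37 to 0.89) in B cells. Ribosomal protein genes took 40.8% of the UMIs of WT T cells and 26.2% of those of KO T cells, and 31.0% and 19.2% in B cells, which enters every value scaled by total UMIs.

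Tregs had as many members higher as lower. Of 17 enzymes and transporters 4 were lower and 4 higher (median -0.22), and of 13 targets 3 were lower and 2 higher (median 0.14), where 26.1% of genes were lower and 24.2% higher and the median gene lay 0.43 higher in KO. Hif1a was at 309 CPM in WT and 1103 in KO (ratio 1.40, 1.17 to 1.65), the highest level of the gene in any class compared. Slc16a3 was at 15.55 and 66.9 CPM (ratio 1.67, 0.64 to 2.92), Ndrg1 at 13.6 and 64.4 CPM (ratio 1.81, 0.72 to 3.16), and Egln3 at 11.7 and 40.5 CPM (ratio 1.36, 0.17 to 2.86), each higher in KO with wide intervals, from 6 to 8 UMIs in the WT library. Lower in KO were Gapdh, at 1436 and 1035 CPM (ratio -0.90, -1.03 to -0.78), Aldoa (ratio -0.72), Pgam1 (ratio -0.83) and Eno1 (ratio -0.67). The name held 94 WT and 396 KO cells, in which the 4 regulatory T markers summed to 1123 and 4829 CPM, the 4 markers of type 2 innate lymphoid cells to 805 and 2380, and the 4 B cell markers to 960 and 274. What these differences in the cells under the name contribute was not tested.

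Across the 14 names of the sorted and the 7 names of the total tumor libraries that could be compared, Aldoa was lower in 14 of 14 and 7 of 7. Gapdh was lower in 14 of 14 sorted and 5 of 7 total tumor names. Ldha, Mif, Pgam1 and Higd1a were each lower in 13 of 14 sorted names. In the total tumor names Ldha was lower in 4 of 7, Mif and Pgam1 in 5 and Higd1a in 3. Pgam1 and Higd1a were called higher in total tumor B cells alone, from few UMIs and with intervals that include 0. Pgam1 had 1 UMI in WT and 31 in KO (ratio 2.54, -0.05 to 7.89), and Higd1a 2 and 28 (ratio 1.39, -0.60 to 4.51). Ankrd37 was lower in 11 of 11 sorted and 4 of 5 total tumor names where it had enough UMIs. Hif1a was higher in 10 of 14 sorted and 3 of 7 total tumor names and lower in 0, its ratios running from -0.15 to 2.39 and from 0.20 to 1.80. Among those total tumor names, B cells had 3 and 27 UMIs of it (ratio 0.75, -0.95 to 3.12). Names within a preparation share the same 2 libraries, so these counts are no independent repeats.

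**Figure D4:**
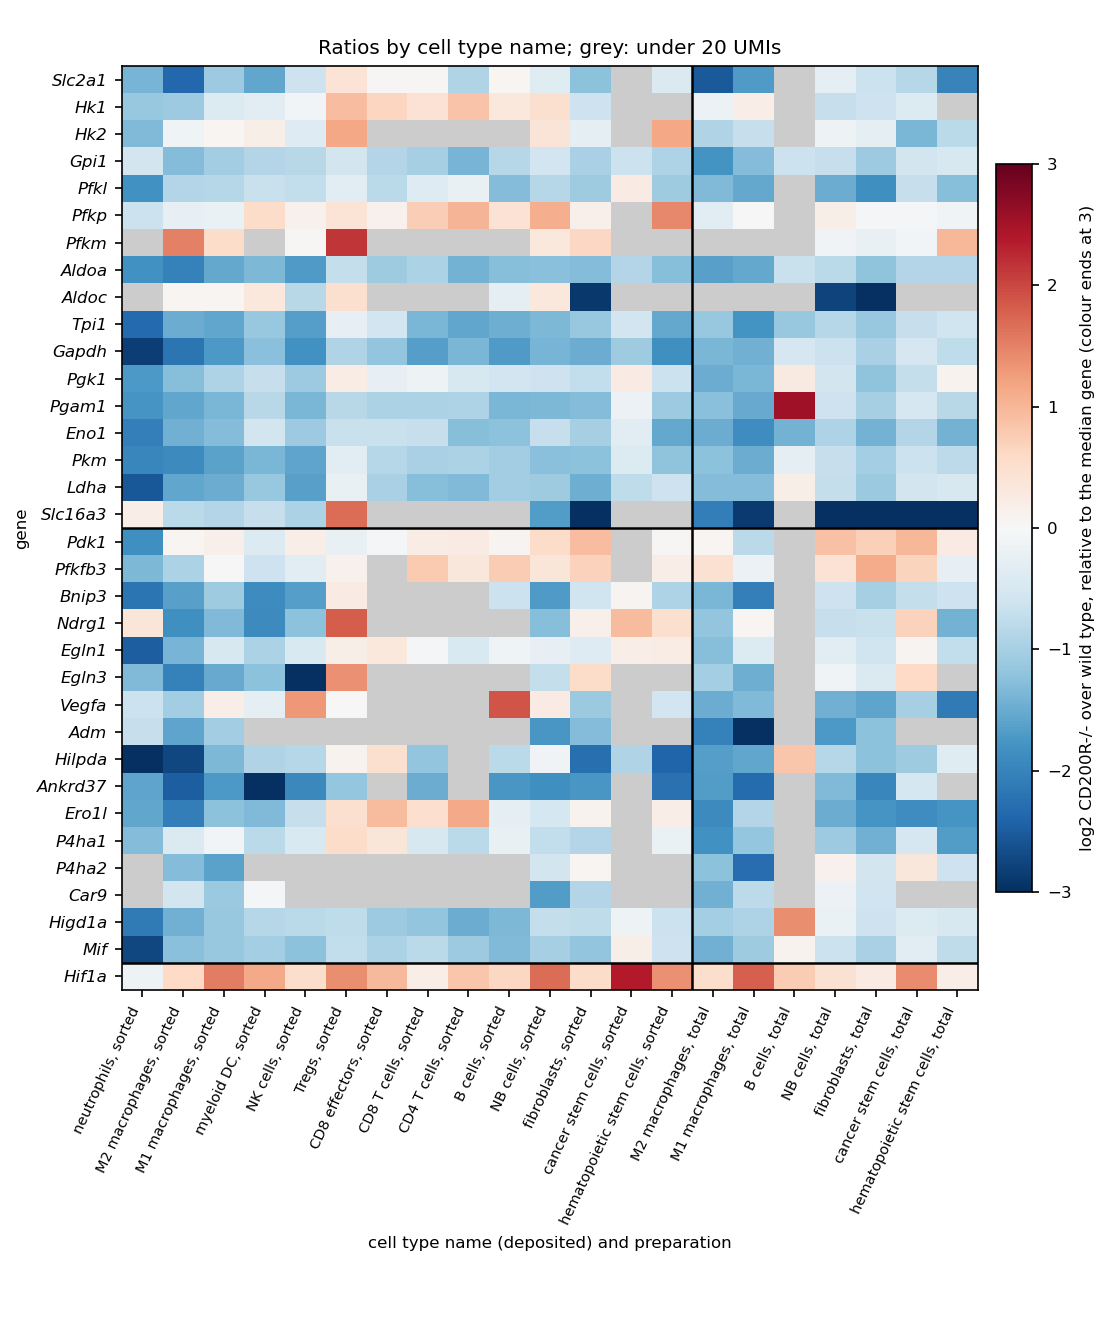
Log2 ratios of KO over WT relative to the median gene, for the 34 members (rows) in the deposited cell type names with at least 50 cells in both libraries (columns, sorted left and total tumor right of the line). Blue is lower and red higher in KO, grey has under 20 UMIs, and the color ends at 3. The rows of Aldoa and Gapdh are blue in all 14 sorted columns, and the row of Hif1a at the bottom holds red fields.

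The most abundant cells of the total tumor libraries, named NB cells (1665 WT and 1283 KO) and fibroblasts (2461 and 2493), also differed. In NB cells 12 of 17 enzymes and transporters were lower and 0 higher (median -0.69), and 9 of 16 targets were lower and 1 higher (median -0.62), against 15.7% of genes lower and 16.8% higher. In fibroblasts 14 enzymes and transporters were lower and 0 higher (median -1.09), and 12 targets were lower and 2 higher (median -0.82), against 16.3% and 19.6%. Many enzymes of NB cells lay near the limit: the ratio of Pgam1, at 889 CPM in WT and 667 in KO, was -0.61, and by total UMIs 6 of the 17 were lower. The median gene lay 0.19 higher in KO NB cells and 0.29 higher in KO fibroblasts.

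The largest ratio of any member in the classes compared was that of the lactate exporter Slc16a3. In NB cells it was at 68.8 CPM in WT (3461 UMIs) and 1.03 in KO (43 UMIs), a ratio of -6.25 (-6.72 to -5.82). In fibroblasts it was at 64.1 and 2.12 CPM (3084 and 100 UMIs), a ratio of -5.21 (-5.51 to -4.92). This is a 76.3-fold and a 37.0-fold difference. The related transporter Slc16a1 made up the rest of the pair: Slc16a3 was 53.3% (52.1 to 54.5) of both in WT and 1.36% (0.983 to 1.82) in KO NB cells, and 54.4% and 3.08% in fibroblasts. Cells of these names in the sorted libraries had ratios of -1.67 (-1.96 to -1.39) in NB cells and -3.18 (-3.82 to -2.59) in fibroblasts. The sorted libraries hold CD45+ cells, and the macrophage markers summed to 4600 CPM in WT sorted but 8.729 in WT total tumor NB cells, and to 426.2 and 7.354 CPM in fibroblasts. The same names thus cover different cells in the 2 preparations, and their ratios stand side by side without a comparison. In the total tumor libraries the gene was lower in each of the 6 names where it had enough UMIs.

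Aldoc had the next lowest ratio in both names. It was at 7.36 CPM in WT and 1.22 in KO NB cells (ratio -2.78, -3.23 to -2.36) and at 14.7 and 1.08 CPM in fibroblasts (ratio -4.06, -4.50 to -3.65), while in sorted macrophages its ratio was 0.11. Pfkl was at 74.9 and 30.75 CPM in NB cells (ratio -1.48) and at 83.8 and 28.7 CPM in fibroblasts (ratio -1.84). Pfkp and Pfkm were within the fold in both names, so the share of Pfkl among the 3 isoforms was 60.2% in WT and 34.6% in KO NB cells and 60.7% and 32.2% in fibroblasts. Pfkl held a smaller share than Pfkp in the KO cells of both names, as in KO macrophages and in WT sorted macrophages.

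Of the targets, Ero1l was at 45.4 CPM in WT and 18.6 in KO NB cells (ratio -1.48) and at 62.55 and 22.6 CPM in fibroblasts (ratio -1.76). Vegfa was at 52.2 and 22.1 CPM (ratio -1.43) and at 74.6 and 30.5 CPM (ratio -1.58). Ankrd37 had ratios of -1.32 and -1.96, Adm -1.73 and -1.23, and P4ha1 -1.09 and -1.43. These 5 were lower in both names. Pdk1 went against its list in both names and Pfkfb3 in fibroblasts alone. Pdk1 was at 43.6 CPM in WT and 92.6 in KO NB cells (ratio 0.89, 0.82 to 0.97) and at 64.3 and 128 CPM in fibroblasts (ratio 0.71, 0.64 to 0.77). Pfkfb3 was higher in fibroblasts, with 626 and 1636 UMIs (ratio 1.12, 0.99 to 1.26), and within the fold in NB cells (ratio 0.43, 0.27 to 0.60). The ratios of Hif1a were 0.45 (0.36 to 0.54) in NB cells and 0.25 (0.16 to 0.33) in fibroblasts, within the fold.

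**Figure D5:**
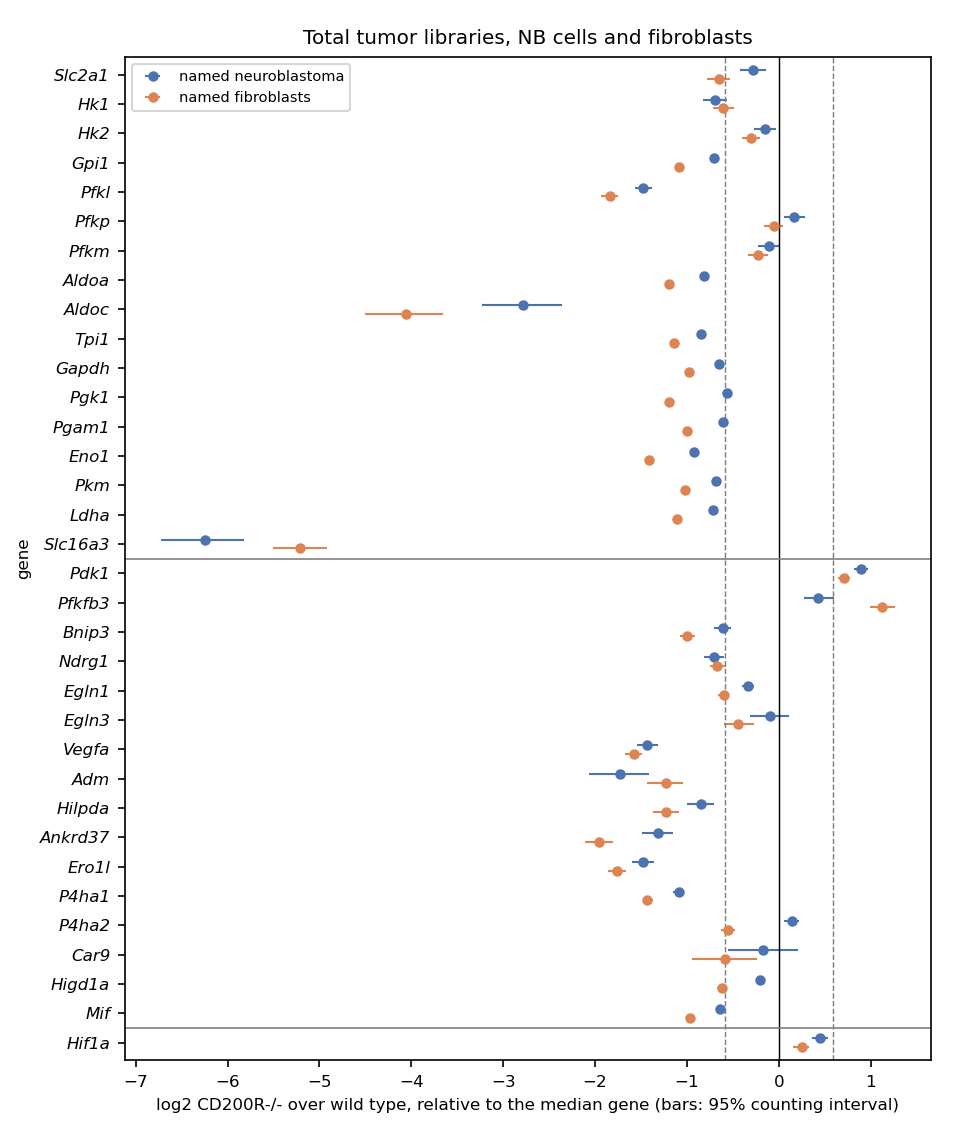
Log2 ratios of KO over WT relative to the median gene for the 34 members in cells named NB (blue) and fibroblasts (orange) of the total tumor libraries, with 95% counting intervals as bars and dashed lines at 1.5-fold. Slc16a3 lies at -6.25 and -5.21, Aldoc at -2.78 and -4.06, and Pdk1 to the right of the dashed line in both.

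Per cell, fewer KO than WT cells of both names had several target UMIs. Thinned cells with at least 3 target UMIs were 19.1% (17.2 to 21.1) in WT and 15.1% (13.2 to 17.2) in KO NB cells and 26.7% (656 of 2457) and 16.1% (14.7 to 17.7) in fibroblasts. Beside it, the 6 fibroblast markers summed to 2636 CPM in WT and 1032 in KO NB cells and to 3176 and 2131 in fibroblasts, the 3 neuroblastoma markers to 158.5 and 251 and to 185 and 340.5, and the dissociation stress genes to 1921 and 2998 and to 2248 and 3324. The part of these differences in the result was not tested. Without cells of shared barcodes, 12 enzymes and transporters and 9 targets were lower in NB cells, and 14 and 11 in fibroblasts.

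A second list of 52 genes of the same pathways served to place the members. In sorted macrophages 2 of 15 further glycolysis genes were lower and 3 higher, and 7 of 28 further hypoxia genes were lower and 7 higher, where 23.1% of all genes were lower and 21.9% higher. In total tumor macrophages 4 of 11 and 14 of 30 were lower and 2 and 3 higher, where 14.6% of all genes were lower and 18.7% higher. In both preparations 7 of 38 were lower, against 6.70% of all genes and 24 of 34 members: the enolase Eno3, the lactate dehydrogenase Ldhb, the Myc antagonist Mxi1, Fam162a, Cited2, the lipid droplet protein Plin2 and Selenbp1. Plin2 was at 849 CPM in WT and 436 in KO sorted cells (ratio -1.29, -1.33 to -1.24) and at 567 and 349 CPM in total tumor cells (ratio -1.01, -1.15 to -0.88). Fam162a, a mitochondrial protein induced by hypoxia, was at 187 and 78.5 CPM (ratio -1.58) and at 337 and 203.5 CPM (ratio -1.04).

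Higher in both preparations were 2 genes of that list. Tfrc, the transferrin receptor that brings iron into cells, was at 37.0 CPM in WT and 349.7 in KO sorted cells (ratio 2.92, 2.82 to 3.01) and at 99.1 and 214 CPM in total tumor cells (ratio 0.79, 0.56 to 1.03). Epas1, which encodes the second HIF alpha subunit, was at 2.24 and 8.32 CPM (ratio 1.57, 1.08 to 2.05) and at 2.25 and 13.1 CPM (ratio 2.22, 0.83 to 3.96), the last from 5 and 27 UMIs. The mRNAs of both alpha subunits, Hif1a and Epas1, were thus higher in KO macrophages, and those of most HIF targets among the members lower.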

How the data were processed

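The authors deposited 1 matrix of natural log values, the log of 1 plus a gene's UMIs per 10000 UMIs of its cell. They deposited beside it a total UMI count, a library name and a cell type name per cell. Cell Ranger 6.0.1, Seurat 4.0.5 and the build mm10 are listed per the submitters' processing notes. Filters on cells are not given in the sources used here, and the smallest cell has 500 UMIs. Counts were recovered with each cell's deposited total: 60957742 of 60957742 nonzero values were whole within 0.01 UMI. The 16 samples of the labels could not be told apart within the 4 libraries, so no test was made.

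UMIs were summed per gene, cell type and library. Intervals are exact Poisson (levels), Clopper-Pearson (shares) and conditional binomial (ratios). Genes with at least 50 UMIs set the median gene. Names with at least 50 cells in both libraries were compared. No doublets were removed, and cells with 3 markers of each of 2 lineages were left out as an alternative. Thinning used seed 1. Gene spans come from GENCODE M21. The steps were tested on simulated data. Python 3.11.15, numpy 2.4.6, pandas 2.3.3, scipy 1.17.1 and matplotlib 3.10.9 were used.

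Every member is named. Full values are given in macrophages where a member passed 1.5-fold in the same direction in both preparations or went against its list, and examples by the same limit elsewhere. Members and lists were chosen with earlier results of these data known.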

Additional observations from a re-analysis of the deposited data

Results flagged for a closer look

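Some members had ratios of KO over WT that went in opposite directions under the same contrast, each past 1.5-fold, and in no case was the difference tested. Pfkm was at 0.73 in macrophages of the sorted and -0.65 in those of the total tumor libraries, the latter from 19 and 14 UMIs. Ero1l was at -1.43 in sorted macrophages and 0.80 in sorted T cells. Between sorted macrophages and sorted Tregs, Slc16a3 was at -0.73 and 1.67, Ndrg1 at -1.35 and 1.81, and Egln3 at -1.45 and 1.36.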

How the results depend on the processing

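No paired analysis was possible because the cells carry no sample number, and for the same reason leaving out each replicate was not run. Over the alternatives run, 117 list medians stayed inside the interval set around the reported value and 11 moved, and 131 counts of lower members stayed within 1.5 times and 5 moved. For list medians that interval came from the ranked ratios of the list's own members, not from counting error. It is wide, so a median that stayed inside it can still lie well away from the reported one. In sorted macrophages the medians ran from -1.48 to -0.69 for enzymes and from -1.42 to -0.81 for targets. In total tumor macrophages the enzyme median of -1.46 was -1.14 by total UMIs, -1.28 less ribosomal protein and mitochondrial UMIs, -1.32 in M2 macrophages alone, -1.29 relative to genes of at least 200 CPM and -1.34 relative to genes under 20 kb, and the target median was -1.76 with thinned cells. By total UMIs, NB cells had an enzyme median of -0.50 with 6 lower, fibroblasts a target median of -0.53, B cells 3 lower targets and T cells 2 lower enzymes and 2 lower targets. Relative to genes of at least 200 CPM, NB cells had -0.55 and 6 lower. The fibroblast enzyme median was -1.23 with equal weight per cell and -1.26 with thinned cells. Of the members' own ratios 714 stayed inside their counting interval, 638 moved out of it, and 2 called ratios changed sign: Pfkm in sorted macrophages was -0.13 with thinned cells, and Ndrg1 in total tumor macrophages was 0.07 in M1 macrophages alone. Without thinning, the shares of cells with at least 3 target UMIs were 86.9% and 65.2% in WT and KO sorted and 70.7% and 38.3% in total tumor macrophages, and 5.25% in WT sorted B cells. Leaving out cells with shared barcodes and both references by gene class were chosen after seeing the data. Genes under about 20 UMIs, such as Pfkm, Aldoc and Car9 in the smaller classes, are limited by depth, and with 1 library per combination genotype cannot be told apart from mouse, graft or library.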
